A study of Mus musculus with 9 samples.

Results

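Old mice given PDK4-IN were compared with old mice given vehicle, by RNA sequencing of cells taken from the lung alveoli. The 6 libraries described here, out of 9 in the series, are the 3 of the PDK4-IN group and the 3 of the Aged group, chosen by the deposited table that pairs them. The labels give the mice as wild-type C57BL/6J males, while the study's methods speak of both sexes for its work on ageing. Genes of both sexes were read in each library. Xist, the RNA that silences an X chromosome in female cells, had 175, 126 and 114 CPM in PDK4-IN libraries and 222, 233 and 203 CPM in Aged libraries, and the Y-linked Ddx3y had 47.7, 32.9 and 31.0 CPM against 47.1, 45.2 and 44.0 CPM in Aged, so every library goes against a purely male source. Both groups were dosed from 20 months onward, with 2 weeks between doses over 4 months, and were examined at 24 months. The PDK4-IN group received PDK4-IN, a small molecule inhibitor of pyruvate dehydrogenase kinase 4 built on an anthraquinone, and the Aged group received vehicle. The other 3 libraries, from young mice (Young), appear only as levels set beside the comparison, and they share no test with it.

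The cells were lifted from frozen lung with laser capture microdissection, a way of cutting selected cells from a tissue section under a microscope, and the captured cells were combined before RNA was made. The labels call them mainly fibroblasts, which lay down connective tissue matrix, and also give the cell type as primary lung fibroblasts. Nothing in the labels says that the 3 libraries of a group came from separate animals, so the p-values below measure the spread between libraries, which may be technical. Sheet names inside the deposited tables speak of bleomycin and of another compound, PCC1, so the groups are known here only by the column names and the sample labels.

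Pyruvate, the end product of glycolysis, is either reduced to lactate in the cytosol or turned into acetyl-CoA in the mitochondria by the pyruvate dehydrogenase complex. Pyruvate dehydrogenase kinases switch this complex off by phosphorylation and pyruvate dehydrogenase phosphatases switch it on again, so an inhibitor of a kinase acts on the protein and need not alter its mRNA. Senescent cells, which have left the cell cycle for good, are known for strong glycolysis and for releasing inflammatory and matrix-degrading proteins, the senescence-associated secretory phenotype (SASP).

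Levels are given as CPM, the counts of a gene scaled by the total of its library, and they compare a gene between libraries but not different genes with each other. A gene was called when the adjusted p of the edgeR quasi-likelihood test was under 0.05, and log2 fold changes are PDK4-IN over Aged. Library totals ran from 19550191 to 20231804 counts in the PDK4-IN group and from 20637678 to 26660409 counts in the Aged group. Along the first principal component, with 78.4% of the variance, the groups lay apart, and the biological coefficient of variation was 9.64% within the PDK4-IN group and 3.61% within the Aged group. Levels also leaned with gene length. The slope of a library's deviation on log2 length was 0.00583, -0.0860 and -0.131 in the PDK4-IN libraries and 0.0638, 0.0774 and 0.0702 in the Aged libraries, so counts for groups of short genes are also given with that trend removed.

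Of 16275 tested genes 8078 were called, 49.6% of all, with 3892 (23.9%) higher and 4186 (25.7%) lower in the PDK4-IN group. Changes of at least 2-fold were mostly decreases, at 1228 genes (7.55%) lower and 224 genes (1.38%) higher. The median log2 fold change over all tested genes was -0.0009. In 9510 tested genes (58.4%) the values of the groups did not overlap. The counts for gene lists and the statements on overlap below are to be read against these shares.

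The genes that rose most were led by Mgp (ENSMUSG00000030218), matrix Gla protein, an inhibitor of calcification, at 37.0, 42.7 and 47.6 CPM in PDK4-IN libraries and 4.35, 4.98 and 6.59 CPM in Aged libraries (log2 fold change 3.02 ± 0.15 SE, edgeR adjusted p = 2.5e-08). Young libraries had 21.98 ± 2.88 CPM (mean ± SD, n = 3, as for all Young levels below). Ly6c1, a surface protein of endothelial and some stromal cells, reached 44.8, 45.8 and 48.3 CPM against 11.3, 9.02 and 9.84 CPM in Aged (log2 fold change 2.21 ± 0.09 SE, edgeR adjusted p = 5.3e-09). In neither gene did the groups overlap. Both aldehyde dehydrogenase genes among the 12 largest increases, Aldh1a1 and Aldh1a7, had log2 fold changes of 1.55 and 1.88. The others were Crct1 (2.41), the long non-coding RNA Phtf1os (1.99), Itgbl1 (1.94), the carboxylesterase Ces2e (1.91), the endopeptidase Ecel1 (1.67), Prl3a1 of the prolactin family (1.61), the cysteine protease inhibitor Cst6 (1.60) and the kininogen Kng2 (1.58).

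Decreases went further, and the 12 largest included genes known from myeloid cells. Itgax, the integrin chain CD11c of alveolar macrophages and dendritic cells, had 0.205, 0.0502 and 0.0989 CPM in PDK4-IN libraries against 16.1, 17.6 and 17.5 CPM in Aged libraries. Fpr1, the receptor for formylated bacterial peptides, had 0.358, 0.703 and 0.198 CPM against 55.4, 55.5 and 55.2 CPM in Aged. Cybb, the catalytic subunit of the phagocyte NADPH oxidase, had 1.99, 1.41 and 1.38 CPM against 201, 199 and 205 CPM in Aged. Each of these Aged values was higher than every PDK4-IN value of the same gene, with log2 fold changes of -7.11, -7.02 and -6.97. The scavenger receptor Msr1 (-6.69), the leukocyte receptor Slamf7 (-6.75) and the oxidase subunit Ncf1 (-6.67) completed the 12 with genes of near-identical families, in which the assignment of reads is uncertain, namely Cd300ld4, Cd300ld5, Pira2, Pira12, Bcl2a1d and H2-M2. Cd300ld4 had 3 counts in the whole PDK4-IN group and 1801 in the Aged group, a ratio of Aged to PDK4-IN of 508 (exact 95% counting interval 173 to 2464). H2-M2 had 2 counts in the PDK4-IN group and 502 in the Aged group, a ratio of 212 (58.5 to 1757). These intervals cover counting error only.

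Markers of macrophages were far lower in PDK4-IN libraries than in Aged libraries. In the list for monocytes and interstitial macrophages 16 of 18 tested genes fell, 1 rose and 1 was not called, and the list's median log2 fold change was -4.45. Adgre1, the gene of the macrophage receptor F4/80, had 7.52, 7.84 and 7.66 CPM in PDK4-IN libraries and 498, 512 and 501 CPM in Aged libraries (log2 fold change -6.03 ± 0.06 SE, edgeR adjusted p = 1.9e-13). Lyz2, the lysozyme of myeloid cells, had 66.6, 78.0 and 75.6 CPM against 2711, 2650.2 and 2728 CPM in Aged (log2 fold change -5.19 ± 0.07 SE, edgeR adjusted p = 6.0e-13). All 6 values of either gene fall into separate ranges by group. The list summed to 161 to 179 CPM in PDK4-IN libraries, 4778 to 4843 CPM in Aged libraries and 56.0 to 65.0 CPM in Young libraries. Of the 18, 3 passed the filter on low counts through Aged only, with 0.489 CPM or more in every Aged library but not in every PDK4-IN library. Means of the 16 markers that fell stood at 1.07% to 27.5% of their Aged means. Ly6c2, of inflammatory monocytes, was the exception, at 0.704 ± 0.0624 CPM against 0.267 ± 0.141 CPM in Aged (edgeR adjusted p = 0.0243). Ly6c2 was the 1 marker that passed the filter through PDK4-IN only, so nothing is read from its rise. Its call was not made in 7 of 15 other settings. Ly6c2 and the far more abundant Ly6c1, given above as higher, are near-identical neighbours and may share reads. Since these are bulk libraries, fewer cells of a type and less RNA per cell cannot be told apart. The part of these markers in the decreases described below was not tested.

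The 12 alveolar macrophage markers summed to 10.1 to 11.7 CPM in PDK4-IN libraries and 449 to 456 CPM in Aged libraries. Of these 7 were tested, 3 of them by passing the filter through Aged only, so nothing is read from the number called. The scavenger receptor Marco had 6.44, 4.92 and 6.97 CPM against 328, 332 and 339 CPM in Aged, and the mannose receptor Mrc1 1.43, 0.954 and 1.53 CPM against 70.3, 72.3 and 64.2 CPM in Aged. Among 6 neutrophil markers 3 fell, led by the collagenase gene Mmp8 (log2 fold change -5.69 ± 0.11 SE, edgeR adjusted p = 6.1e-12). S100a8, a subunit of calprotectin, rose (log2 fold change 0.80 ± 0.10 SE, edgeR adjusted p = 7.5e-05). Of the 6, 1 passed the filter through Aged only. Of 12 B cell and plasma cell markers 4 were tested, 3 of them by passing the filter through Aged only. Among them were the B cell receptor regulators Cd72 and Cd22. Cd72 had 4.26 ± 2.21 CPM against 48.6 ± 1.62 CPM in Aged, and Cd22 0.217 ± 0.173 CPM against 3.37 ± 0.532 CPM in Aged (SD, n = 3 each). All 12 markers summed to 54.2 to 57.6 CPM in Aged libraries, most of it from Cd72. Cd4 was the only one called of 4 T cell and NK cell markers, 2 of which passed the filter through Aged only. It was lower at edgeR adjusted p = 0.027, and 6 of 15 other settings did not call it. None of 3 tested dendritic cell and mast cell markers was called.

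The lists for other cells of the lung held values of several sizes. Markers of alveolar type 1 cells summed to 911 to 926 CPM in PDK4-IN libraries and 874 to 896 CPM in Aged libraries, those of type 2 cells to 164 to 179 CPM against 212 to 220.1 CPM in Aged, and those of the airway to 463 to 512 CPM against 427 to 432 CPM in Aged. Most of the type 1 sum came from Pdpn, Cav1, Vegfa and Emp2, with means of 379, 328, 107 and 79.8 CPM in PDK4-IN libraries. Their Aged means were 329, 316, 141 and 83.4 CPM. The type 1 marker Ager had at most 1.04 CPM in any of the 6 libraries. Most of the airway sum was Tubb4b, at means of 471 CPM with PDK4-IN and 406 CPM in Aged. Sftpc, the surfactant gene that defines alveolar type 2 cells, had at most 0.301 CPM in any of the 6 libraries. The club cell gene Scgb1a1 had no count in them. Red cell markers, globins included, summed to 1.07 to 1.78 CPM in PDK4-IN libraries and 0.872 to 1.35 CPM in Aged libraries. The alveolar type 2 list held 5 lower genes of 6 tested, among them Etv5 and Abca3 at log2 fold changes of -0.41 and -0.36, genes that other cells also express, and 3 were lower without Aged replicate 2. Of the 6, 1 passed the filter through Aged only, and without genes under 1 CPM in Young 4 of 4 were lower. Alveolar type 1 markers were called in 3 genes higher and 2 lower of 11 (1 lower without Aged replicate 1), airway markers in 2 higher and 1 lower of 9, and mesothelium markers in none of 7 (1 lower without PDK4-IN replicate 1, and 1 in each direction without PDK4-IN replicate 2). For the airway 1 gene was higher without PDK4-IN replicate 2 or 3 or any 1 Aged replicate, and 0 were lower without PDK4-IN replicate 1 or 2 or Aged replicate 1 or 3. The filter was passed through Aged only by 1 type 1, 1 airway and 3 mesothelium markers, and through PDK4-IN only by 1 type 1 and 1 airway marker. Endothelium markers were lower in 6 of 13 cases and higher in 2. Of the 13, 2 passed the filter through Aged only and 1 through PDK4-IN only, and without genes under 1 CPM in Young 3 of 7 were lower. Von Willebrand factor, Vwf, had 2.81, 2.36 and 2.97 CPM against 9.98, 9.66 and 9.16 CPM in Aged. Endoglin, Eng, had a log2 fold change of 0.34. Fibroblast markers summed to 13041 to 14584 CPM in PDK4-IN libraries and 12344 to 12507 CPM in Aged libraries.

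**Figure D1:**
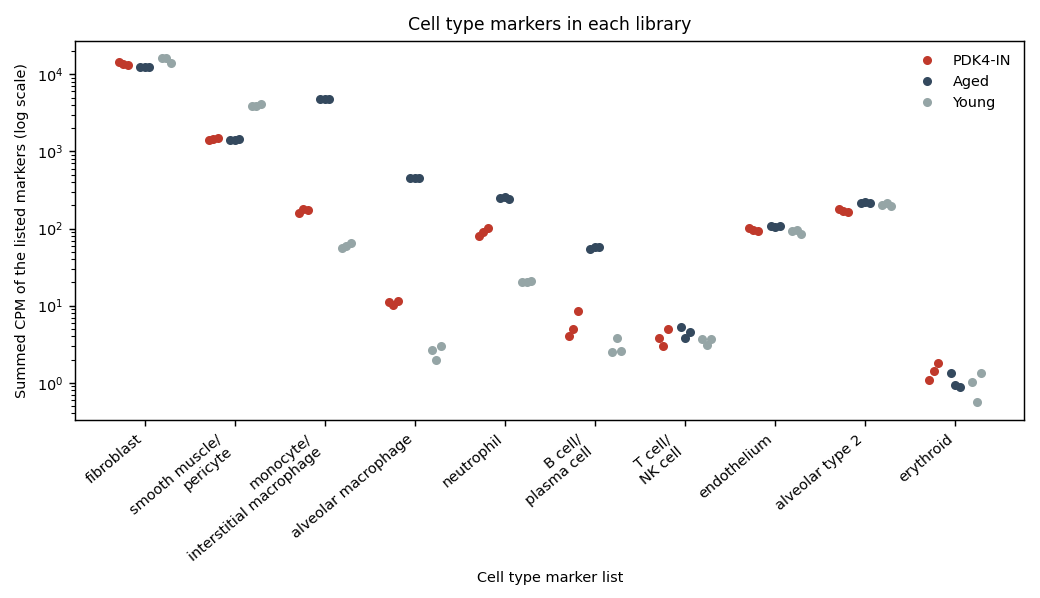
Summed CPM of cell type marker lists on a log axis, each point 1 library, with PDK4-IN libraries left of Aged libraries and Young libraries at the right of each list. Monocyte and interstitial macrophage markers lie at 161 to 179 CPM in PDK4-IN libraries and 4778 to 4843 CPM in Aged libraries, while the fibroblast sums of the groups lie within the same order of magnitude.

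The mRNA of the target itself was moderately lower. Pdk4 (ENSMUSG00000019577) had 63.1, 61.3 and 56.3 CPM in PDK4-IN libraries and 79.3, 75.6 and 71.2 CPM in Aged libraries, with no overlap (log2 fold change -0.32 ± 0.06 SE, edgeR adjusted p = 0.00153), and was lower under each of 17 other settings. Young libraries had 25.4 ± 1.74 CPM. Of the kinases that share its role, Pdk1 fell (57.7, 51.8 and 46.2 CPM against 79.0, 75.9 and 77.1 CPM in Aged, log2 fold change -0.57 ± 0.07 SE, edgeR adjusted p = 7.9e-05). Pdpr, a regulator of the opposing phosphatase, also fell, by 0.53 on the log2 scale. Pcx, pyruvate carboxylase, which turns pyruvate into oxaloacetate, rose (76.3, 79.7 and 73.8 CPM against 53.5, 55.4 and 56.2 CPM in Aged, log2 fold change 0.48 ± 0.06 SE, edgeR adjusted p = 4.3e-05), as did Mpc2, a subunit of the mitochondrial pyruvate carrier (0.34, edgeR adjusted p = 0.00242). Mpc2 was not called once the length trend was removed. The kinase Pdk2 (0.32) and the complex subunit Pdhb (0.18) rose and the phosphatase Pdp1 (-0.48) fell. Over the 15 kinases, phosphatases, carriers and complex subunits, 4 rose, 4 fell and 7 were not called, near the shares over all genes, and 2 rose without Aged replicate 2. With the length trend removed 4 were higher, of which only 2 were among the 4 that rose here.

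Glycolysis and lactate genes were lower in 12 of 24 cases and higher in 4, with a median of -0.12. Pfkfb3, which makes the activator of phosphofructokinase, had 56.0, 52.3 and 48.0 CPM in PDK4-IN libraries and 134, 139 and 132 CPM in Aged libraries (log2 fold change -1.37 ± 0.06 SE, edgeR adjusted p = 9.7e-09), with no overlap. Hk3, a hexokinase of myeloid cells, had 1.07, 1.00 and 0.544 CPM against 66.7, 71.3 and 73.5 CPM in Aged (-6.32), beside the macrophage markers. Ldha, the lactate dehydrogenase chain that favours lactate, had 1754, 1903 and 1919 CPM against 2041, 2069.6 and 2057 CPM in Aged, a small decrease (log2 fold change -0.14 ± 0.05 SE, edgeR adjusted p = 0.0341) that 8 of 17 other settings did not call. Ldhb, the chain that favours pyruvate, rose (109, 120.2 and 120.4 CPM against 71.6, 71.0 and 75.5 CPM in Aged, log2 fold change 0.69 ± 0.06 SE, edgeR adjusted p = 5.1e-06), and so did the enolase Eno2 (0.31). With single libraries left out 7 to 11 glycolysis genes were lower, the 7 without Aged replicate 1, and 3 to 9 higher, the 9 without PDK4-IN replicate 1.

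**Figure D2:**
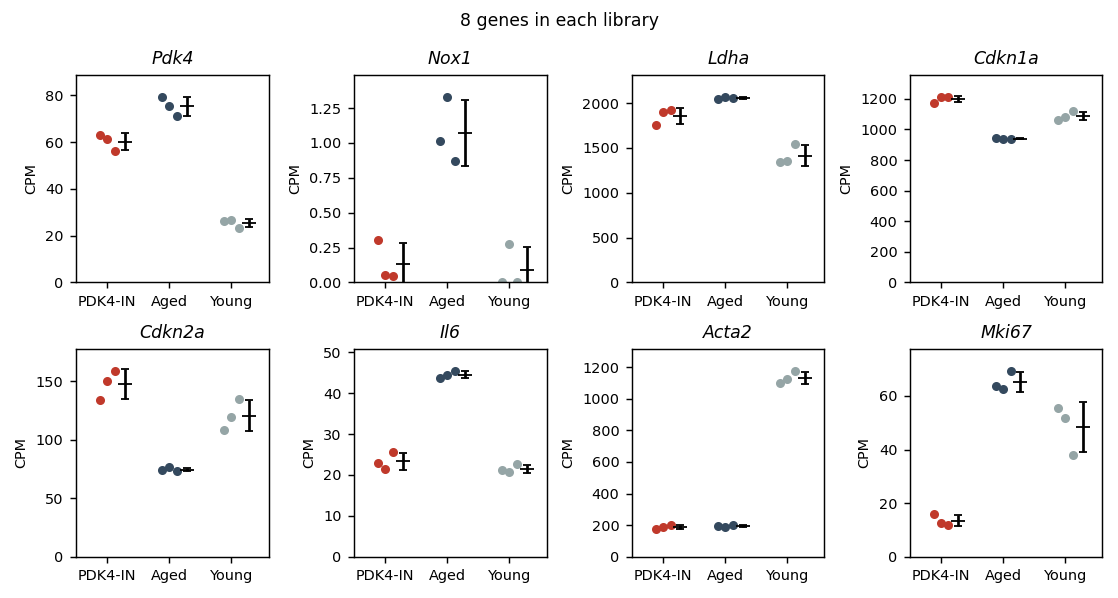
CPM of 8 genes in each library of the PDK4-IN, Aged and Young groups, every axis starting at 0, with the mean and SD of the 3 libraries beside the points. Pdk4, Nox1, Il6 and Mki67 are lower and Cdkn1a and Cdkn2a higher in all PDK4-IN libraries than in any Aged library, and the Acta2 values of the groups overlap.

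Mitochondrial genes encoded in the nucleus leaned the other way. Of 48 tested genes of oxidative phosphorylation, the respiratory chain and ATP synthase, 42 rose and none fell, with a median of 0.38. Ndufb7, a subunit of complex I, had 79.5, 85.8 and 91.5 CPM in PDK4-IN libraries and 55.9, 54.9 and 53.5 CPM in Aged libraries (log2 fold change 0.65 ± 0.07 SE, edgeR adjusted p = 1.6e-05). Uqcrq, a subunit of complex III, had 135, 153 and 173 CPM against 95.6, 91.4 and 91.8 CPM in Aged (log2 fold change 0.74 ± 0.08 SE, edgeR adjusted p = 3.5e-05). In both genes the groups were apart and PDK4-IN replicate 1 was the lowest of its group, as it was the highest in length slope. These genes are short, with a median length of 957 bases against 2806 over all tested genes, and 33 of the same genes were called higher with the length trend removed, when Uqcrq stood at 0.35 and Ndufb7 at 0.35 on the log2 scale. Of 20 tricarboxylic acid cycle genes 8 rose and 1 fell, with malate dehydrogenase Mdh2 at 318, 339 and 360.1 CPM against 277, 275 and 272 CPM in Aged and the succinyl-CoA ligase subunit Sucla2 at a log2 fold change of 0.28, a count that was 13 without PDK4-IN replicate 1 and 4 without PDK4-IN replicate 2 or any 1 Aged replicate. Idh2, a mitochondrial isocitrate dehydrogenase, was the 1 lower gene (-0.21, edgeR adjusted p = 0.0297), a call that 6 of 17 other settings did not make.

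Of 18 fatty acid oxidation genes 12 rose and 1 fell. Acadvl, which opens the oxidation of very long fatty acids, had 254, 281 and 292 CPM in PDK4-IN libraries and 188, 186 and 193 CPM in Aged libraries (log2 fold change 0.55 ± 0.06 SE, edgeR adjusted p = 2.8e-05), and the electron carrier subunit Etfb also rose (0.62). The gene that fell was Cpt1a, which carries fatty acids to the mitochondrion (211, 187 and 173 CPM against 244, 246 and 255 CPM in Aged, log2 fold change -0.38 ± 0.06 SE, edgeR adjusted p = 0.00056). The mitochondrial genome did not share a direction, with 4 of its 13 protein genes higher, 5 lower and 4 not called. There mt-Nd6 (0.50) and mt-Nd3 (0.94) rose and mt-Co1 (-0.30) and mt-Atp8 (-0.69) fell. The mitochondrial genes other than mt-Nd6 and mt-Nd3 that rose, mt-Nd1 and mt-Nd4, did so by 0.15 and 0.13 on the log2 scale. Without PDK4-IN replicate 2, Aged replicate 1 or Aged replicate 2 the lower genes numbered 3, and with the length trend removed 2 were higher.

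**Figure D3:**
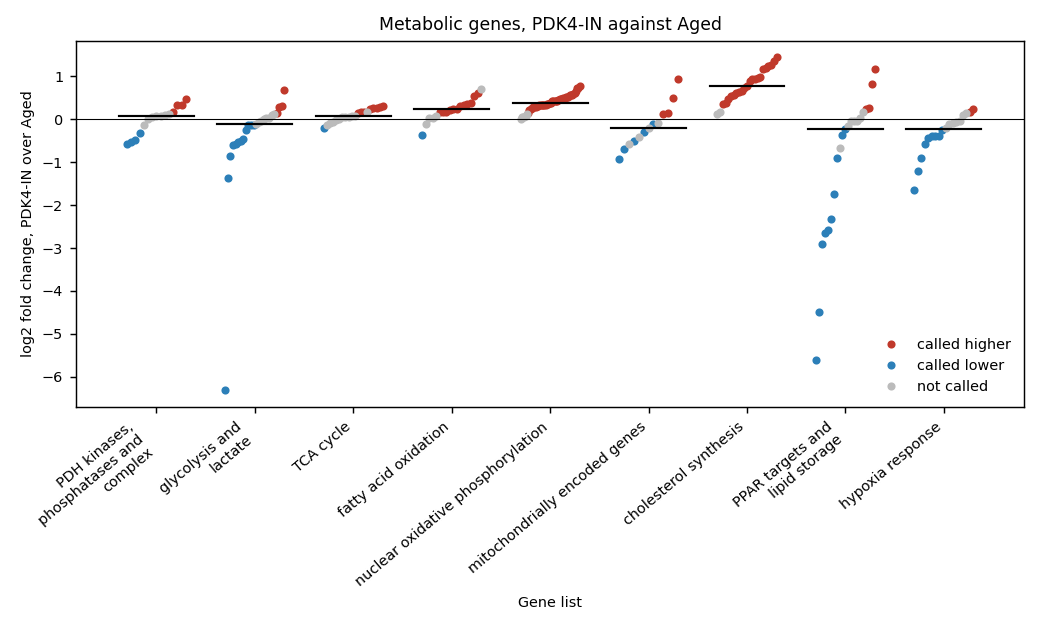
Log2 fold change of PDK4-IN over Aged for each tested gene of 9 metabolic lists, red where called higher, blue where called lower and grey where not called, with a black line at the list's median. Cholesterol synthesis has the highest median at 0.77 and no gene called lower, and Hk3 of the glycolysis list is the lowest in its list at -6.32.

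Cholesterol synthesis rose as a pathway. Of 23 tested genes 21 rose and none fell, with a median of 0.77, and 6 rose at least 2-fold. Msmo1, the methylsterol monooxygenase, had 106, 103 and 112 CPM in PDK4-IN libraries and 38.7, 40.1 and 39.9 CPM in Aged libraries (log2 fold change 1.44 ± 0.06 SE, edgeR adjusted p = 5.2e-09), against 68.5 ± 6.25 CPM in Young. Idi1, which isomerises isopentenyl diphosphate, had 75.7, 78.8 and 74.6 CPM against 32.4, 31.0 and 33.5 CPM in Aged (log2 fold change 1.25 ± 0.06 SE, edgeR adjusted p = 2.3e-08) and 55.9 ± 2.07 CPM in Young. The groups were apart in both genes and the spread within each was small. Fdps, farnesyl diphosphate synthase, had a log2 fold change of 1.35 and Fdft1, squalene synthase, of 1.19. Srebf2, the transcription factor of the pathway, had a log2 fold change of 0.39. With single libraries left out, 20 to 22 of the genes were higher, and 22 were with the length trend removed.

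In mammals this pathway is known to be switched on through sterol regulatory elements, so promoters of RefSeq (build GRCm38.p6, 250 bases before to 50 after a start) were searched for the letters TCACNCCAC on both strands. Of the list 16 genes had a promoter there, with 19 windows, and 1 window (5.26%) held the letters, against 1.24% of all 32851 windows. It was that of Hmgcs1, the first committed step, shown with the match in capitals (chr13:119690189-119690247, + strand).
Hmgcs1: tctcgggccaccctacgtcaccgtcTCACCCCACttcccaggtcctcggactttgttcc
Hmgcs1 had 108, 103 and 95.1 CPM in PDK4-IN libraries and 56.2, 55.9 and 53.3 CPM in Aged libraries, a log2 fold change of 0.89. A match is a string of letters, not a tested site, and the matches of this element shared no base with those of the interferon and cell cycle motifs described below.

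Lipid handling genes split. Among 21 targets of PPAR factors and genes of lipid storage 10 fell and 4 rose. Among those that fell were Cd36, a fatty acid and oxidised lipoprotein receptor (7.52, 6.78 and 7.56 CPM in PDK4-IN libraries, 359, 353 and 357 CPM in Aged libraries), and Apoe, the lipoprotein of macrophages and other cells (17.4, 18.1 and 18.6 CPM, against 400.2, 401 and 416 CPM in Aged). Both stand with log2 fold changes of -5.60 and -4.48 beside the macrophage markers. The lipid droplet protein Plin4 (1.18) and the fatty acid binding protein Fabp3 (0.82) rose.

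Hypoxia response genes were lower in 9 of 18 cases and higher in 2. Ndrg1, a classical hypoxia-induced gene, had 37.4, 38.4 and 35.3 CPM in PDK4-IN libraries and 122, 114 and 116 CPM in Aged libraries (log2 fold change -1.65 ± 0.06 SE, edgeR adjusted p = 1.2e-09), with no overlap, and Egln3, a prolyl hydroxylase of the oxygen sensor, fell by 0.91 on the log2 scale. P4ha2, a collagen prolyl hydroxylase (0.17), and Higd1a (0.23) rose, both calls that leaving out a single library could end.

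NADPH oxidases, which make superoxide, were lower in 8 of 13 tested genes and higher in 1, with a median of -1.37. Nox1, the oxidase of non-phagocytic cells, had 0.307, 0.0502 and 0.0494 CPM in PDK4-IN libraries, against 1.01, 1.33 and 0.872 CPM in Aged libraries (log2 fold change -2.94 ± 0.56 SE, edgeR adjusted p = 0.00133), so the highest PDK4-IN value stayed under the lowest Aged value at a level near detection. The changes were larger in the phagocyte oxidase, where Rac2, its regulatory GTPase, had 2.20, 1.66 and 2.67 CPM against 117, 119.8 and 122 CPM in Aged (-5.77) and Cybb is given above. Duoxa1, a maturation factor of a dual oxidase, rose (log2 fold change 1.28 ± 0.27 SE, edgeR adjusted p = 0.00234). Once genes under 1 CPM in Young are left out, only 4 of these genes remain, 1 of them lower and 1 higher. Of the 13, 1 passed the filter through Aged only.

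Antioxidant genes went in both directions, 16 higher and 14 lower of 39. Slc7a11, the cystine importer that feeds glutathione synthesis, had 33.2, 28.8 and 30.8 CPM in PDK4-IN libraries and 148, 141 and 144 CPM in Aged libraries (log2 fold change -2.21 ± 0.06 SE, edgeR adjusted p = 1.6e-10), and Sod2, the mitochondrial superoxide dismutase, 121, 129 and 129 CPM against 224, 219 and 221 CPM in Aged (-0.80). The extracellular glutathione peroxidase Gpx3 had 251, 257 and 263 CPM against 124, 131 and 129 CPM in Aged (log2 fold change 1.02 ± 0.05 SE, edgeR adjusted p = 3.0e-08), and the glutathione transferase Gstm2 rose too (0.87). With the length trend removed 10 were higher and 15 lower. The core of the antioxidant response element, TGACNNNGC on either strand, lay in 9 of 40 promoter windows of 33 list genes (22.5%), against 12.4% of all 32851 windows, in 7 of 15 windows of genes that fell and 2 of 18 windows of genes that rose.

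Cell cycle inhibitors and p53 targets leaned higher, 17 of 28 genes higher and 5 lower, with a median of 0.24. Cdkn2a, the gene of p16 and p19ARF, had 134, 150.3 and 159 CPM in PDK4-IN libraries and 74.0, 76.3 and 73.5 CPM in Aged libraries (log2 fold change 1.00 ± 0.07 SE, edgeR adjusted p = 6.6e-07), against 121 ± 13.5 CPM in Young. Its neighbour Cdkn2b, the gene of p15, had 157, 169 and 165 CPM against 95.7, 91.2 and 92.5 CPM in Aged (log2 fold change 0.82 ± 0.05 SE, edgeR adjusted p = 3.4e-07). Cdkn1a, the gene of p21, had 1174, 1209 and 1213 CPM against 945, 936 and 937 CPM in Aged (log2 fold change 0.36 ± 0.04 SE, edgeR adjusted p = 3.6e-05) and 1087 ± 27.4 CPM in Young, with a log2 fold change of 0.14 once the length trend was removed. All 3 inhibitors were higher in every PDK4-IN library than in any Aged library. The p53 target Perp rose further (1.25), while lower genes numbered 5, or 2 to 5 without single libraries (3 without PDK4-IN replicate 2, 2 without Aged replicate 1 or 2). Among these Sesn1, a stress-induced regulator of mTOR signalling (-0.56), and Cdkn2c, the gene of p18 (-0.37), fell. Of 12 other senescence markers 5 were lower, with the chromatin protein Hmgb2 at -1.08 and the urokinase receptor Plaur at -0.71, and 3 higher, with the lysosomal fucosidase Fuca1 at 0.45 and lamin A, Lmna, at 0.22.

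Secretory factors of senescent cells leaned lower but not as a whole. Of 68 tested factors 36 fell, 20 rose and 12 were not called, with a median of -0.29. Il6, a cytokine of acute inflammation, had 23.02, 21.5 and 25.5 CPM in PDK4-IN libraries and 43.6, 44.5 and 45.4 CPM in Aged libraries (log2 fold change -0.92 ± 0.08 SE, edgeR adjusted p = 3.1e-06), against 21.5 ± 1.01 CPM in Young. Mmp12, the elastase of macrophages, had 22.1, 20.0 and 20.2 CPM against 851, 843 and 859 CPM in Aged (-5.35), and Ccl3, a chemokine for leukocytes, 3.48, 3.37 and 4.65 CPM against 146, 153 and 151 CPM in Aged (-5.28). These genes did not overlap between the groups. Among those that rose were the gelatinase Mmp2 (451, 449.7 and 422 CPM in PDK4-IN libraries, 283, 284 and 284 CPM in Aged libraries, log2 fold change 0.64 ± 0.04 SE, edgeR adjusted p = 5.0e-07) and the protease inhibitor Serpine2 (1432, 1498 and 1472 CPM, against 991, 975 and 994 CPM in Aged, 0.58). Among the 61 factors left without genes under 1 CPM in Young, 30 fell and 20 rose. Of the 68, 4 passed the filter through Aged only.

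Genes of dividing cells fell almost together. Of 42 proliferation genes 40 fell, 24 of them at least 2-fold, and 1 rose, with a median of -1.29. Mki67, a protein of cycling nuclei, had 15.8, 12.7 and 11.9 CPM in PDK4-IN libraries and 63.7, 62.5 and 69.2 CPM in Aged libraries (log2 fold change -2.27 ± 0.09 SE, edgeR adjusted p = 6.1e-09), against 48.4 ± 9.20 CPM in Young. Top2a, the topoisomerase of dividing cells, had 28.4, 24.6 and 21.1 CPM against 96.4, 96.4 and 94.6 CPM in Aged (log2 fold change -1.95 ± 0.08 SE, edgeR adjusted p = 9.1e-09) and 83.8 ± 6.67 CPM in Young. Neither gene overlapped between PDK4-IN and Aged. The gene that rose was Ccnd1, cyclin D1 (0.17), and E2f1 did not pass. None of the 42 was under 1 CPM in Young, and 39 or 40 were lower under each of the other settings. Replication-dependent histone genes leaned higher instead, 17 of 38 with 1 lower, the lowest p among them at H4c17 (0.66) and H4c9 (0.67), and H4c14 fell (-0.96). Histone genes are near-identical copies, so their reads are not assigned with certainty, and 13 were higher and 2 lower with the length trend removed.

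Many genes of mitosis are known to carry a cell cycle homology region in their promoter, a short stretch bound by a repressor complex in resting cells. Its core, TTTGAA, was found on either strand in 15 of 34 windows of 33 proliferation genes (44.1%), against 17.9% of all windows. The windows of Mki67 (chr7:135716465-135716520, - strand) and Top2a (chr11:99024338-99024393, - strand) are shown because both genes are described above, with the core in capitals. The stretch of Top2a holds 1 of its 2 cores.
Mki67: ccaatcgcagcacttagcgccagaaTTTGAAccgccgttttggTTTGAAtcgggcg
Top2a: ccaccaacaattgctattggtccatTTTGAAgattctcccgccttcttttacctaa

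Type I interferon response genes fell in 34 of 37 cases, with a median of -0.96. Ifit1, an RNA-binding protein of the antiviral response, had 24.6, 22.4 and 23.9 CPM in PDK4-IN libraries and 75.2, 74.6 and 79.3 CPM in Aged libraries (log2 fold change -1.68 ± 0.06 SE, edgeR adjusted p = 2.5e-09), against 38.8 ± 7.75 CPM in Young. Oas3, a sensor of double-stranded RNA, had 1.13, 1.05 and 0.989 CPM against 12.4, 13.3 and 12.8 CPM in Aged (log2 fold change -3.59 ± 0.14 SE, edgeR adjusted p = 4.4e-09) and 0.807 ± 0.362 CPM in Young. Both genes were apart between the groups by more than the spread within either. Isg15, the ubiquitin-like modifier, fell by 0.86 on the log2 scale. Against this direction Ifi27 (0.31) and Ifi35 (0.39) rose, Ifi27 not with the length trend removed, and Isg20 did not pass. Of the 35 genes at 1 CPM or more in Young 32 fell. Of the 37, 2 passed the filter through Aged only. Near-identical neighbours in this list, such as Oas1a and Oas1g or Ifit3 and Ifit3b, may share reads.

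Interferon acts on these genes through a response element, GAAA, any 2 bases and GAAA again. On either strand it lay in 15 of 31 windows of 26 list genes (48.4%), against 3.44% of all windows. Over all windows 16 held bases shared by this element and the TTTGAA core, and none of these belonged to an interferon gene. The stretches of Ifit1 (chr19:34640760-34640819, + strand), Oas3 (chr5:120777700-120777759, - strand) and Isg15 (chr4:156200862-156200921, - strand) show paired copies (Ifit1), a single copy (Oas3) and overlapping copies (Isg15) in capitals, read on the strand of the gene, so that TTTC, any 2 bases and TTTC is the same element on the other strand.
Ifit1: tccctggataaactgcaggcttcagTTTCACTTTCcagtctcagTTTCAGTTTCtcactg
Oas3: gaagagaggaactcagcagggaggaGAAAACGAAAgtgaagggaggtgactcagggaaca
Isg15: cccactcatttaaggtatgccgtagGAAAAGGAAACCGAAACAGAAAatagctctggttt

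**Figure D4:**
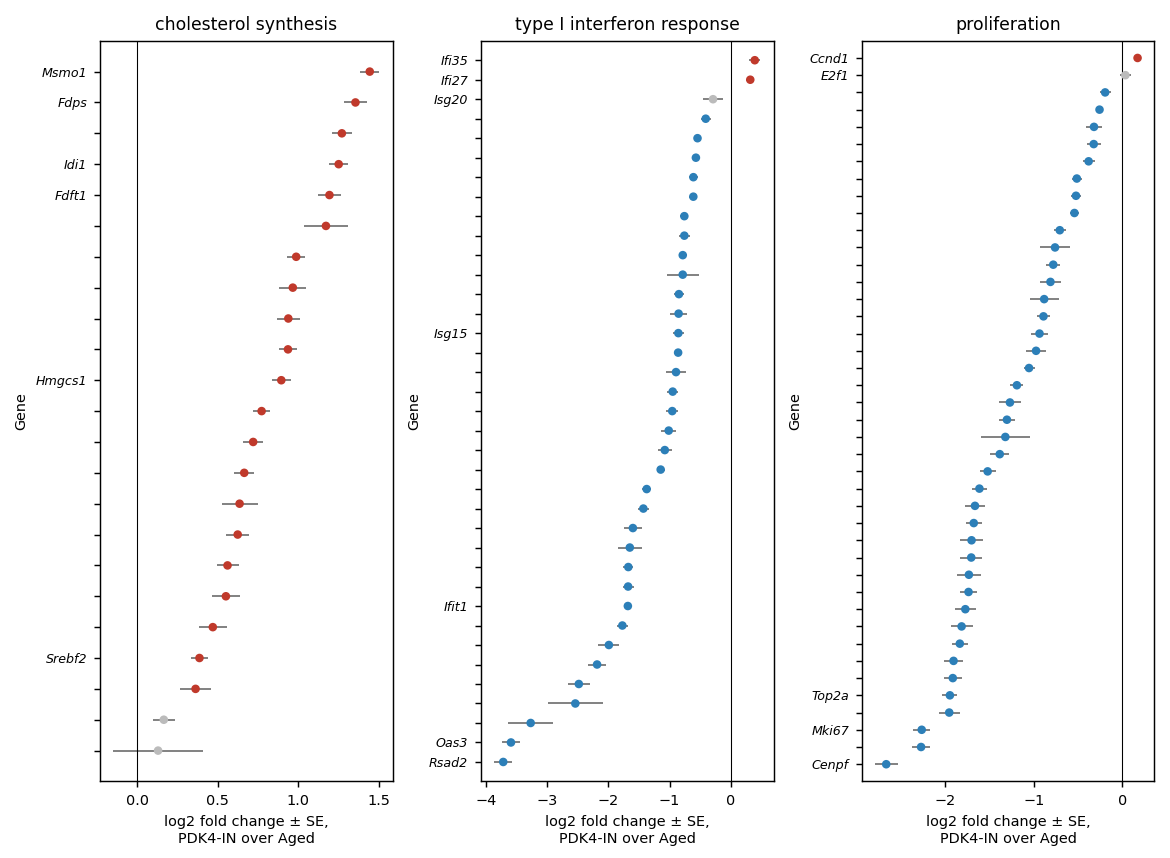
Log2 fold change of PDK4-IN over Aged with its standard error for each tested gene of the cholesterol synthesis, type I interferon response and proliferation lists, red where called higher, blue where called lower and grey where not called, with the names of genes described in the text. All 23 cholesterol genes lie above 0, led by Msmo1 at 1.44, and the lowest points of the other panels are Rsad2 at -3.72 and Cenpf at -2.67.

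Inflammatory genes were more often lower than higher in mRNA, a measure that does not read signalling itself. NF-kB pathway genes and targets fell in 20 of 29 cases and rose in 3. Il1b, the interleukin 1 beta of activated macrophages, had 0.818, 0.703 and 0.939 CPM in PDK4-IN libraries and 56.2, 61.6 and 54.5 CPM in Aged libraries (log2 fold change -6.11 ± 0.12 SE, edgeR adjusted p = 8.4e-12), and Nos2, the inducible nitric oxide synthase, 55.2, 53.2 and 48.5 CPM against 215, 218 and 218 CPM in Aged (-2.04). Ccl20, a chemokine for lymphocytes and dendritic cells, rose (36.9, 38.6 and 43.4 CPM against 23.6, 23.4 and 21.9 CPM in Aged, log2 fold change 0.80 ± 0.08 SE, edgeR adjusted p = 1.7e-05), as did the adhesion molecule Vcam1 (0.22). Of 19 interleukin 1 family and inflammasome genes 14 fell, with the receptor antagonist Il1rn at 30.3, 29.5 and 26.9 CPM against 230.1, 224 and 230.3 CPM in Aged, and the pore-forming Gsdmd alone rose (0.26). Toll-like receptors and their co-receptors fell in 16 of 22 cases and rose in none, among them Tlr13, which senses bacterial ribosomal RNA (-5.63), and Cd14, which presents lipopolysaccharide (-3.32). Chemokines fell in 16 of 24 cases, among them Ccl9 (-5.37) and Ccl6 (-5.85), while 6 rose, near the share over all genes. Some genes of these lists passed the filter through Aged only, and nothing is read from their calls. They were 5 Toll-like receptor genes, 3 interleukin 1 and inflammasome genes, 2 chemokines and 1 NF-kB gene.

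The chemokines that rose included Ccl11, eotaxin, at 87.8, 84.8 and 96.6 CPM in PDK4-IN libraries and 40.2, 36.0 and 37.0 CPM in Aged libraries (log2 fold change 1.26 ± 0.07 SE, edgeR adjusted p = 1.1e-07), and Cxcl14 at 44.1, 42.9 and 45.0 CPM against 22.9, 22.97 and 21.3 CPM in Aged (log2 fold change 0.98 ± 0.07 SE, edgeR adjusted p = 5.1e-07). Neither overlapped between the groups. In these same libraries macrophage markers summed to 161 to 179 CPM with PDK4-IN and 4778 to 4843 CPM in Aged. Without the genes under 1 CPM in Young, 17 of 26 NF-kB genes, 9 of 13 interleukin 1 genes, 9 of 15 Toll-like receptor genes and 11 of 19 chemokines were lower.

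Of 19 complement genes 11 fell and 5 rose, and without genes under 1 CPM in Young 6 of 13 fell. Of the 19, 4 passed the filter through Aged only. The anaphylatoxin receptors C3ar1 (2.46, 2.46 and 2.32 CPM in PDK4-IN libraries, 138, 133 and 133 CPM in Aged libraries) and C5ar1 (-6.06), known from myeloid cells, fell. The protease C1s1 (243, 245 and 226 CPM in PDK4-IN libraries, 143, 134 and 141 CPM in Aged libraries, log2 fold change 0.78 ± 0.05 SE, edgeR adjusted p = 3.2e-07) and the C1 inhibitor Serping1 (0.78), known also from fibroblasts, rose. MHC class II was called in 2 genes lower and 2 higher of 7, with the invariant chain Cd74 (-3.75) and the protease Ctss (-5.62) lower and H2-DMa (0.71) and H2-Ab1 (0.77) higher, near the shares over all genes. The call of H2-Ab1 was lost in 7 of 16 other settings, with 1 gene higher without PDK4-IN replicate 2 or any 1 Aged replicate, and none was lower without genes under 1 CPM in Young. MHC class I genes fell in 11 of 19 cases and rose in 3 (6 without PDK4-IN replicate 1), with the peptide editor Tapbp at -0.42 and the trimming peptidase Erap1 at -0.48, and the transporter Tap1 at 0.37. Cathepsins and lysosomal enzymes split into 15 lower and 9 higher of 26. Gpnmb, a glycoprotein of lipid-laden macrophages, had 471, 474 and 455 CPM in PDK4-IN libraries and 2229, 2246 and 2266 CPM in Aged libraries (-2.26), and Ctsk, the collagen-degrading cathepsin K, 113, 124 and 128 CPM against 57.6, 60.3 and 55.7 CPM in Aged (1.08).

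Matrix genes were more often higher. In the list of collagens and elastic fibre genes 20 of 40 rose and 10 fell, with a median of 0.18. The fibulins Efemp1 (211, 214 and 214 CPM in PDK4-IN libraries, 119, 116 and 118 CPM in Aged libraries, log2 fold change 0.86 ± 0.05 SE, edgeR adjusted p = 6.2e-08) and Fbln1 (119.7, 117 and 117 CPM, against 67.9, 69.2 and 67.3 CPM in Aged, 0.80) rose with no overlap. Ltbp1, which holds latent TGF-beta in the matrix, and the collagen chain Col6a3 fell (-0.71 and -0.93). Matricellular proteins and proteoglycans rose in 15 of 27 cases and fell in 4. Sparc, a collagen-binding protein, had 2038, 2083 and 2045 CPM in PDK4-IN libraries and 1213, 1194 and 1191 CPM in Aged libraries (log2 fold change 0.79 ± 0.04 SE, edgeR adjusted p = 2.7e-08), and Postn, periostin, 424, 387 and 376 CPM against 199, 196 and 203 CPM in Aged (log2 fold change 1.00 ± 0.05 SE, edgeR adjusted p = 3.7e-08). Versican, Vcan (-0.74), and osteopontin, Spp1 (-0.32), fell. With the length trend removed 24 collagen and elastic fibre genes were higher and 5 lower, and 17 matricellular genes higher and 4 lower.

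Metalloproteinases and their inhibitors split into 9 higher and 11 lower of 27, with the aggrecanase Adamts5 (1.00) beside Mmp2 among the higher genes and Mmp12 and Mmp8, both given above, among the lower genes. Of the 27, 1 passed the filter through Aged only, and without genes under 1 CPM in Young 9 were higher and 9 lower of 24. Fibroblast markers were higher in 7 and lower in 4 of 17 cases. Dpt, dermatopontin, had 34.6, 35.2 and 36.6 CPM in PDK4-IN libraries and 13.2, 12.1 and 11.4 CPM in Aged libraries (log2 fold change 1.54 ± 0.08 SE, edgeR adjusted p = 5.2e-08), and Thy1, the surface antigen CD90, 245, 262 and 271 CPM against 159, 152 and 162 CPM in Aged (0.73). Npnt, nephronectin, and the cytoskeletal linker Macf1 fell (-0.91 and -0.58). Acta2, the actin of contractile cells, had 176, 189 and 203 CPM in PDK4-IN libraries and 194, 188 and 201 CPM in Aged libraries, overlapping values with an edgeR adjusted p of 0.776, while Young libraries had 1133 ± 38.4 CPM. Smooth muscle and pericyte markers were called in 3 cases higher and 2 lower of 15, with desmin, Des (1.30), higher and calponin, Cnn1 (-0.82), lower, and 1 was lower without PDK4-IN replicate 2 or 3 or Aged replicate 1 or 2. Lung mesenchyme transcription factors were called in 5 higher and 3 lower of 21 cases, with Hoxb6 (0.74) and Meox2 (0.50) higher and Gli3 (-0.59) lower, and 8 were higher without PDK4-IN replicate 1 and 3 without PDK4-IN replicate 2 or Aged replicate 3, while 1 was lower without PDK4-IN replicate 2 or Aged replicate 2 or 3.

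Signalling lists moved in parts. TGF-beta genes were 6 higher and 7 lower of 20, with the target Ccn2 at 583, 588 and 587 CPM in PDK4-IN libraries and 400.3, 396 and 386 CPM in Aged libraries (log2 fold change 0.58 ± 0.04 SE, edgeR adjusted p = 8.6e-07) and the receptor Tgfbr1 at -0.66. Insulin-like growth factor genes were 4 higher and 7 lower of 14. Igf1 itself, a growth factor that macrophages and fibroblasts make, had 3.89, 4.17 and 4.15 CPM against 32.1, 30.8 and 32.2 CPM in Aged (log2 fold change -2.95 ± 0.09 SE, edgeR adjusted p = 3.0e-10), and the binding proteins moved apart, with Igfbp2 (1.35) and Igfbp7 (0.61) higher and Igfbp4 (-0.98) lower. WNT genes were 11 higher and 5 lower of 32, among them the inhibitor Nkd2 (0.69) and the ligand Wnt9a (0.70) higher and the R-spondin receptor Lgr6 (-0.99) lower, and the lower genes numbered 2 without PDK4-IN replicate 2 or Aged replicate 2 and 3 without PDK4-IN replicate 3 or Aged replicate 1. Immediate early factors fell in 13 of 23 cases and rose in 5, with Fos at 5.73, 5.58 and 5.63 CPM in PDK4-IN libraries and 23.9, 23.3 and 27.4 CPM in Aged libraries (log2 fold change -2.13 ± 0.10 SE, edgeR adjusted p = 2.0e-08), Atf3 at -2.62, and Maff (0.57) and Jund (0.49) higher. Of 13 glucocorticoid targets 7 fell and 2 rose, with Errfi1 (-0.86) lower and Cebpd (0.54) higher, and without PDK4-IN replicate 1 9 were lower and 4 higher. Clock genes were 6 lower and 3 higher of 19, with the output factor Dbp at 0.93, Nr1d1 at 0.46, the repressor Cry1 at -0.87 and Bhlhe41 at -1.06.

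Genes of protein synthesis and turnover were higher as lists, by small steps. Cytosolic ribosomal protein genes were higher in 79 of 80 cases and lower in none, with a median of 0.42 and the lowest p at Rpl13a (0.64) and Rpl14 (0.62). Mitochondrial ribosomal protein genes rose in 64 of 78 cases, with Mrpl38 (0.58) and Mrps18b (0.56) first, and proteasome subunits in 24 of 31, led by Psmb4 (0.58). Neither of these lists had a lower gene. Their genes are short, at median lengths of 770.5, 1324 and 1512 bases, and with the length trend removed 58, 50 and 21 were higher, with 1 proteasome gene lower. The ATF4 stress response was 13 higher and 4 lower of 26, with Ddit3, the gene of CHOP, at 76.5, 94.7 and 96.7 CPM in PDK4-IN libraries and 48.2, 51.8 and 48.2 CPM in Aged libraries (log2 fold change 0.86 ± 0.09 SE, edgeR adjusted p = 1.9e-05) and the seryl-tRNA synthetase Sars at 0.52. Cytosolic heat shock proteins rose in 13 of 18 cases, with Hspe1 at 0.64 and Hspb8 at 0.50, and Hspa1b fell (-0.24). Without single libraries the higher heat shock genes numbered 7 to 15, with 7 or 8 whenever PDK4-IN replicate 2 or any Aged replicate was absent. The unfolded protein response split into 9 higher and 7 lower of 21, with the disulfide isomerase Pdia3 (0.42) higher and the sensor Ern1 (-0.69) lower, and 5 were higher without Aged replicate 1 or 2 and 4 lower without PDK4-IN replicate 2 or the length trend.

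**Figure D5:**
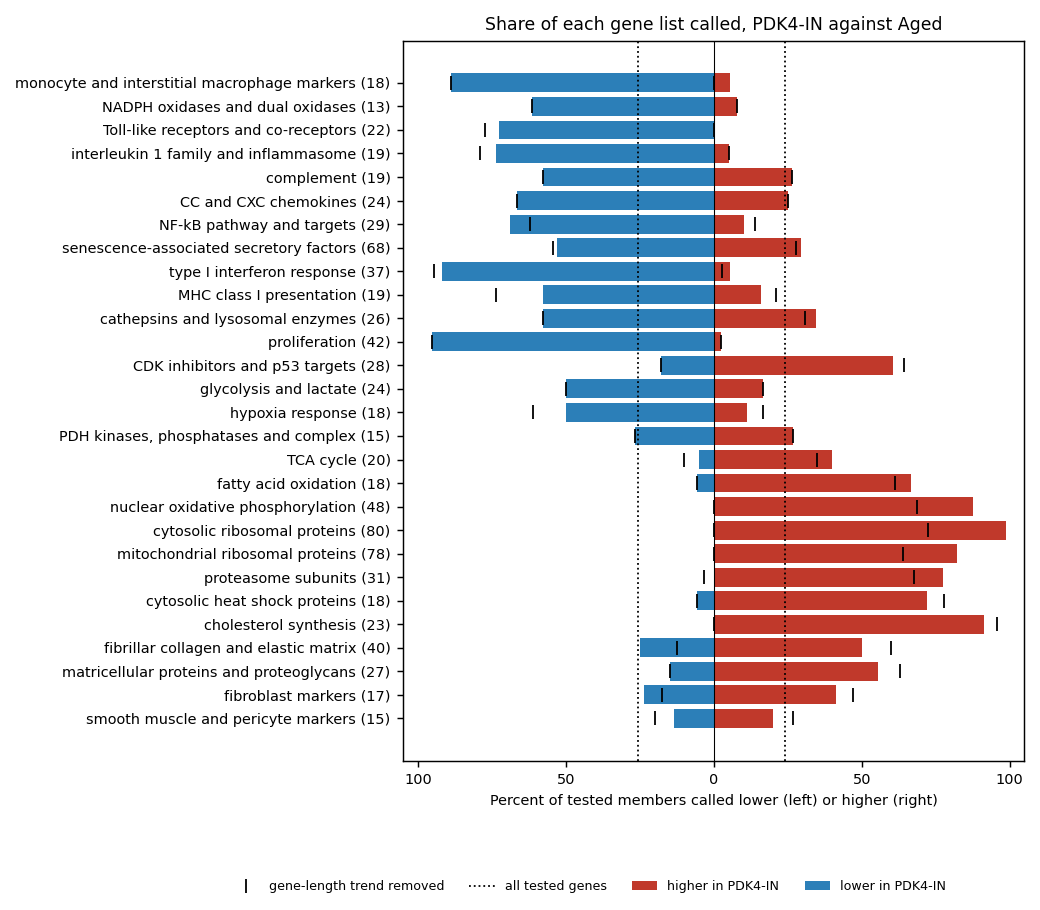
Percent of the tested members of 28 gene lists called higher (red, right) or lower (blue, left) in PDK4-IN against Aged, with the number tested in brackets, black ticks for the shares with the gene-length trend removed, and dotted lines at the shares over all tested genes, 23.9% higher and 25.7% lower. Lower calls dominate from macrophage markers to proliferation, and higher calls from fatty acid oxidation to cholesterol synthesis.

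A large part of the 2-fold decreases fell on genes that were hardly present in Young libraries. Of the 1228 genes at least 2-fold lower with PDK4-IN, 632 (51.5%) averaged under 1 CPM in Young, against 59 of the 224 at least 2-fold higher (26.3%) and 2553 of all 16275 tested (15.7%). The 2553 tested genes under that level summed to 1920 to 1988 CPM in PDK4-IN libraries, 11563 to 11608 CPM in Aged libraries and 1219 to 1261 CPM in Young libraries. With them left out of totals, scaling and adjustment, 7383 of 13723 genes were called, and 621 were at least 2-fold lower. Lists that hold none of these genes, such as proliferation, or few, such as cholesterol synthesis, kept their counts, at 40 lower of 42 and 21 higher of 22.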

How the data were processed

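RNA was sequenced from 9 libraries of laser-captured lung cells, of which the 3 PDK4-IN and 3 Aged libraries were compared. The authors deposited expected counts and TPM per gene with Ensembl mouse identifiers and gene lengths, for 55414 genes, of which 1401 carry no name. Per the labels' processing notes reads were aligned with Bowtie 0.12.2 and the genome build was GRCm39 (mm39). The program that estimated the counts and the strand setting are not given in the sources used here for the mouse libraries. The Aged columns are identical in both deposited tables. The tables also hold the authors' group means of TPM, fold changes, p-values and significance labels, which were not used, and 0 columns of other samples. Deposited TPM values, scaled by the authors for length and depth, enter no value in the text, and levels are CPM on library totals.

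Expected counts were rounded to whole numbers. Genes were kept with edgeR's filterByExpr and scaled by TMM, and groups were compared by the quasi-likelihood F test of edgeR 4.0.16 (R 4.3.3) with Benjamini-Hochberg adjustment over all tested genes. Beyond the lists noted above, 2 WNT genes, 1 histone gene and 1 dendritic or mast cell marker passed the filter through Aged only. Through PDK4-IN only, 1 gene each passed in the collagen, mesenchyme factor, T cell, dendritic cell and histone lists. SE is the log2 fold change over the root of F. A prior count of 2 was used for log CPM in principal components and length slopes. With at most 3 counts in a group, ratios carry exact 95% intervals, which cover counting error only, as do all counting limits; 3 counts in a group correspond to 0.0503 CPM with PDK4-IN and 0.0425 CPM in Aged. Library totals are given in the report. The code was tested on simulated counts. DESeq2 1.42.0, limma 3.58.1 with voom, other scalings and filters, the length trend removed, all 9 libraries, single libraries left out and the replicate number as a block were alternatives, and leaving out genes under 1 CPM in Young was added after seeing the data. Promoters are RefSeq's on GRCm38.p6, so their coordinates are not on the build of the counts.

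Genes were named by a rule. It took, in each direction, the 12 called genes of largest fold whose higher group averaged at least 50 counts, whose groups did not overlap and whose symbol was no clone, predicted gene or pseudogene name. From each of 55 gene lists it took up to 4 members, 2 per direction by lowest p. It always took Acta2, Cdkn1a, Cdkn2a, Il6, Ldha, Mki67, Nox1 and Pdk4. Pdk2, Pdhb, Pdp1, mt-Nd1, mt-Nd4, Fdps, Fdft1, Srebf2, Hmgcs1, E2f1, Isg15, Isg20, Rsad2, Cenpf, Sftpc, Scgb1a1, Ager, Cav1, Emp2, Pdpn, Xist and Ddx3y were named after their values were seen. The members of the comparison and the gene lists were chosen with earlier results of these data known. Values of some genes are not reported here.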

Additional observations from a re-analysis of the deposited data

How the results depend on the processing

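Of 199 named genes, 180 kept their direction and their side of the threshold in all alternatives that gave a value, and 18 lost the call in at least 1, namely Cd4, Cdh1, Edem1, H2-Ab1, H4c14, Higd1a, Hspa1b, Idh2, Ifi27, Ldha, Ly6c2, Mpc2, Mt2, P4ha2, Prrx1, Rgs5, Rtkn2 and Tppp3. Pdk4, Nox1, Cdkn2a and Il6 were called in the same direction in all of them, Pdk4 at log2 fold changes of -0.35 to -0.26 with adjusted p of 4.7e-05 to 0.0137. Acta2, never called, changed sign, at 0.024 with upper-quartile scaling and at -0.082 to 0.058 with single libraries left out.

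The count of 8078 called genes was 8100 with RLE size factors, 8000 with library totals, 8236 with upper-quartile scaling, 8184 of 33466 with no filter, 7947 of 14604 with at least 1 CPM in 3 libraries, 7597 with all 9 libraries, 7637 with the length trend removed, 7182 by DESeq2 and 8195 by limma-voom. It was 6549 to 9498 with single libraries left out, lowest without Aged replicate 2 and highest without PDK4-IN replicate 1. The trend with length changed more of the list than scaling did, since 6656 of 8078 calls were shared without it, against 7601 to 8016 under the other scalings. Other called genes whose log2 fold change moved by over 1.5 times without the length trend, with their value there, were S100a8 0.44, Hspe1 0.38, H4c9 0.40, Etfb 0.39, H4c17 0.28, Ifi35 0.25, Mdh2 0.19, mt-Nd6 0.17, Sucla2 0.17 and mt-Nd3 0.50 among those higher, and Vcan -0.44, Gli3 -0.37, Abca3 -0.18 and Macf1 -0.15 among those lower, while mt-Atp8, already lower, fell further. With genes under 1 CPM in Young left out, an alternative chosen after seeing the data, 776 genes instead of 1452 changed at least 2-fold and 621 instead of 1228 were at least 2-fold lower, a fall set by the 2553 tested genes removed.

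Same-numbered PDK4-IN and Aged libraries deviated together at r = -0.05, -0.00 and 0.03, so the numbers do not pair them. With the replicate number as a block 7606 genes were called, 7508 of them shared. The depth limits statements on low genes such as Nox1, whose PDK4-IN libraries held 6, 1 and 1 counts.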
